A study of Mus musculus with 12 samples.

Results

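ATP-binding cassette (ABC) transporters are membrane proteins that use ATP to move bile acids, lipids, drugs and conjugated waste products across membranes. The genes described here were those whose symbol begins with Abc, followed by a letter from a to g and a digit, and which were named alone by a probe set of the array. One probe set was kept per gene, the one with the highest mean over all arrays. These were 45 of the 18194 genes measured. In a liver cell, exporters at the canalicular membrane build bile by secreting bile salts, phospholipid, cholesterol and conjugates, whereas exporters at the sinusoidal membrane return bile acids and conjugates to the blood when bile flow is impaired. Other ABC genes act in peroxisomes, lysosomes or mitochondria, form part of potassium channels, or work at the ribosome without crossing a membrane at all.

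Liver RNA from 12 male mice of the 129J strain was hybridized to 12 arrays, 3 per group. The groups carry the labels WT 6 months and WT 24 months (wild-type, normal liver), KO 6 months (IQGAP2 knockout, normal liver) and KO 24 months tumor (IQGAP2 knockout, hepatic tumor). All animals were on a regular diet, and the knockout was conventional, not limited to hepatocytes. The values are log2 intensities, and for a given gene a difference of 1 is a doubling. Levels of different genes were not compared, since probe sets differ in brightness.

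The knocked-out gene itself did not follow the labels. Its log2 intensity was 8.32 ± 0.07 (SD, n = 3) under the label WT 6 months, as low as the 8.29 ± 0.34 under KO 6 months, and it was 12.12 ± 0.06 under KO 24 months tumor, as high as the 12.17 ± 0.21 under WT 24 months. Whether this probe set lies in the deleted stretch is not given in the sources used here. Afp, the fetal liver protein raised in many hepatic tumors, had a mean of 12.79 under the label WT 6 months and between 6.21 and 6.74 under the remaining labels. The labels were kept as deposited, and every group name below means the arrays that carry that label. If the labels of WT 6 months and of KO 24 months tumor were exchanged, WT 6 months against WT 24 months would compare tumor with normal liver at 24 months, and WT 6 months against KO 6 months would compare knockout tumor with young knockout liver. KO 24 months tumor against WT 24 months would then compare young and old wild-type liver, and KO 24 months tumor against KO 6 months the 2 genotypes at 6 months. Of 6 hepatocyte markers listed, 4 were measured, and these were high in all arrays. The log2 of the summed intensities of Alb, Apoa1, Ttr and Apob lay between 16.65 and 16.82. This sum rests mostly on Alb, Apoa1 and Ttr, with group means of 14.97 to 15.16. Whether probe sets this bright still follow a change in hepatocyte share was not tested. Of the 4 markers, Apob passed as higher in WT 6 months against KO 6 months (1.04 ± 0.25). It passed as lower in KO 24 months tumor against WT 24 months (-1.34 ± 0.25).

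Of the 45 genes, 12 passed the test (limma, Benjamini-Hochberg adjusted p of 0.05 or less over all 18194 genes) in at least 1 of 6 comparisons and 33 passed in none. Nearly all of the passing differences set the WT 6 months arrays against the others, but most of the 6 comparisons contain these arrays. In WT 6 months against WT 24 months, 6 genes were higher and 2 lower, that is 13.3% and 4.44% of the members, where 7.07% of all genes were higher and 6.22% lower. In WT 6 months against KO 6 months, 7 were higher (15.6%) and 2 lower (4.44%), against 8.04% and 9.00% of all genes. With the 3 remaining groups averaged as the reference, 7 were higher and 4 lower in WT 6 months, where 10.6% and 11.5% of all genes were. This comparison was chosen with earlier results of these arrays known, which showed WT 6 months apart. The 3 WT 6 months arrays lay above all 9 other arrays in 7 members and below all 9 in 2, where 7.29% of all genes lay above and 7.79% below. These comparisons share the WT 6 months arrays and are not independent of each other. In the 2 comparisons without the WT 6 months arrays, little passed. KO 6 months against WT 24 months was not fitted, so nothing is said of that pair. KO 24 months tumor against WT 24 months gave 1 member, against 0.572% of all genes, and KO 24 months tumor against KO 6 months gave none, against 0.0330% of all genes, although before adjustment 1 member was higher and 5 were lower at p under 0.05.

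Fitted on its own 6 arrays, WT 6 months against WT 24 months kept 3 of its 8 calls (Abcc2, Abca7 and Abca8b), and SAM, a resampling method for arrays, kept 2 (Abcc2 and Abca7). In WT 6 months against KO 6 months both kept all 9.

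**Figure D1:**
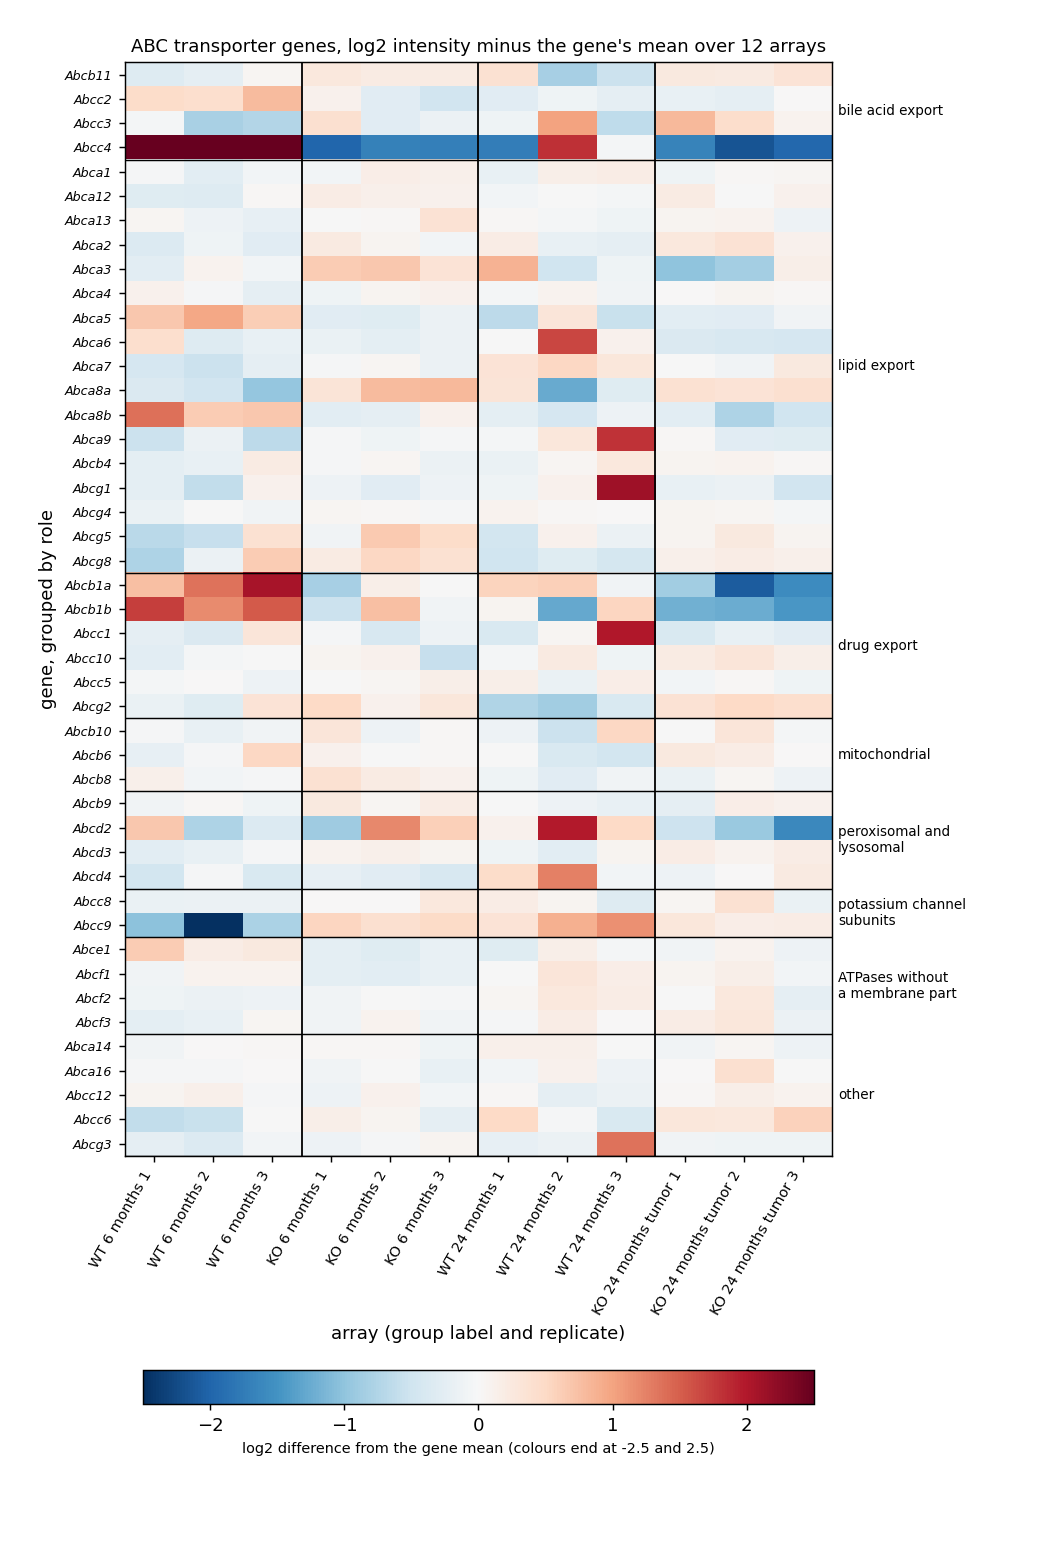
Heat map of the 45 ABC transporter genes (rows, grouped by role) in the 12 arrays (columns, by group label and replicate); colour is the log2 intensity minus the mean of that gene over the 12 arrays. Abcc4 stands out in all 3 WT 6 months arrays, and single dark cells mark WT 24 months replicate 2 (Abcc4, Abca6, Abcd2) and replicate 3 (Abcg1, Abca9, Abcc1).

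The 4 bile acid exporters moved unevenly. Abcc4 and Abcc2 were higher in the WT 6 months arrays, and Abcb11 and Abcc3 passed in no comparison. The group's median log2 difference was 0.46 in WT 6 months against WT 24 months and 0.20 in WT 6 months against KO 6 months, where the medians of all genes were -0.01 and -0.05.

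Abcc4, which exports bile acids, cyclic nucleotides and conjugated steroids across the sinusoidal membrane, showed the largest difference of the family. Its log2 intensity was 11.15, 11.32 and 12.43 in WT 6 months and 5.96, 6.24 and 6.23 in KO 6 months. It was 6.26, 5.78 and 5.98 in KO 24 months tumor and 6.21, 9.76 and 7.88 in WT 24 months. The WT 6 months arrays lay above all others, and WT 24 months was the only other group with any array above 7, namely replicates 2 and 3. The difference was 5.49 ± 0.67 (SE) against KO 6 months, a fold of 45.1 (limma, adjusted p = 0.00025), and 3.69 ± 0.67 against WT 24 months, a fold of 12.9 (limma, adjusted p = 0.0037). Both passed whichever array was left out, with the second ranging from 2.82 to 4.59. The second did not pass by SAM or with only the arrays of its own groups fitted.

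Abcc2, the canalicular exporter of glutathione and glucuronide conjugates, moved less but with little spread. It was 9.63, 9.60 and 9.96 in WT 6 months, 9.28, 8.89 and 8.69 in KO 6 months, 8.89, 9.06 and 8.94 in WT 24 months and 9.00, 8.94 and 9.18 in KO 24 months tumor. The lowest WT 6 months array was above the highest of the other 9. The difference was 0.76 ± 0.15 against WT 24 months (limma, adjusted p = 0.0069) and 0.78 ± 0.15 against KO 6 months (limma, adjusted p = 0.0052), and both passed in each fit that left out an array.

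Abcb11, the bile salt export pump, had means of 12.18 in WT 6 months, 12.57 in KO 6 months, 12.62 in KO 24 months tumor and 12.02 in WT 24 months. Its values were 12.02, 12.13 and 12.39 in WT 6 months, 12.60, 12.55 and 12.55 in KO 6 months, 12.58, 12.57 and 12.69 in KO 24 months tumor and 12.72, 11.52 and 11.81 in WT 24 months. The WT 6 months arrays lay below both KO groups without overlap, and WT 24 months held the highest and the lowest values. The difference against KO 6 months was -0.39 ± 0.24 (limma, adjusted p = 0.31), which SAM called. Abcc3, which exports bile acids and glucuronides to the blood, ranged from 10.25 in WT 6 months replicate 2 to 12.06 in WT 24 months replicate 2. The difference of Abcc3 was -0.62 ± 0.37 against WT 24 months and -0.52 ± 0.37 against KO 6 months, and neither passed (adjusted p = 0.35 and 0.39).

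The stretch just before a gene's start holds binding sites for the factors that set its transcription. The 250 bases before the starts that the promoter table lists for Abcc4 and Abcc2 are shown because both bile acid exporters were higher in the same arrays and because each stretch holds the letters TGACNNNGC (N is any base, either strand). These letters are the core of the antioxidant response element that NRF2 binds. The annotated gene of Abcc4 reaches farther upstream than the first of its listed starts. The letters are in capitals, in RefSeq sequence of build GRCm38.p6.
Abcc4, first start, chr14:118706220-118706469, minus strand: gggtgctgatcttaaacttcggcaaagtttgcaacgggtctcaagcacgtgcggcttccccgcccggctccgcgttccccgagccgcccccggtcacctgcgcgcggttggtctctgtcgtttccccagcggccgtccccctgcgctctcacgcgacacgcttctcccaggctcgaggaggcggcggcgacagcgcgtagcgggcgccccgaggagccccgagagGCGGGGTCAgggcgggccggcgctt
Abcc4, second start, chr14:118676932-118677181, minus strand: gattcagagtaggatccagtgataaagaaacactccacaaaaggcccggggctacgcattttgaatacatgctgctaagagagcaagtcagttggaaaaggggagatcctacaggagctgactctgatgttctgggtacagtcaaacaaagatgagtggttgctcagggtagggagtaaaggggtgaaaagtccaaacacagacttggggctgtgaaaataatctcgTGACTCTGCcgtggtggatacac
Abcc2, chr19:43782058-43782307, plus strand: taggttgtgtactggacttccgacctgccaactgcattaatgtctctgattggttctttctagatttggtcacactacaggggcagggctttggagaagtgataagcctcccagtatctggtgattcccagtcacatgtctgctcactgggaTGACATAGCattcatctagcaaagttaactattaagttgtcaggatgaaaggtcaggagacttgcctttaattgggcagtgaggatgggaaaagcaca
The match lay 25 bases before the first start of Abcc4, as its reverse complement, 23 before the second and 98 before that of Abcc2, counted from its first base. Of the 45 genes 35 had promoters in the table, 42 in all, and 4 promoters of 3 genes (Abcc4, Abcc2 and Abcc10) held the letters, a share near the 10.2% of all 32851 promoters. Of the 3 genes, Abcc10 differed by -0.13 ± 0.17 in WT 6 months against WT 24 months. The letters CTTTGA, the core bound by the TCF/LEF partners of beta-catenin, were in 7 of the 42 promoters, of 7 genes, and in 13.8% of all promoters. Of the 12 genes that passed in the 6 comparisons 1, Abcb1a, was among the 7. Genes without a listed promoter were not searched. A match of letters is not a binding site.

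Other genes of bile acid handling were counted from lists of known function. For these and the later lists, the shares of all genes were 7.07% higher and 6.22% lower in WT 6 months against WT 24 months. Against KO 6 months they were 8.04% and 9.00%. One list held 10 genes of bile acid uptake and other carriage, not all of them bile acid transporters. Of these, 2 were higher and 4 lower in WT 6 months against WT 24 months, and 1 was higher and 6 lower against KO 6 months. Those lower against WT 24 months were the uptake carriers Slc10a1 (-1.41 ± 0.28), Slco1a4 (-2.34 ± 0.44) and Slco2b1 (-1.02 ± 0.15), and Slc51b (-0.56 ± 0.14). The 2 higher were Atp8b1, a phospholipid flippase of the canalicular membrane (0.57 ± 0.11), and Ephx1 (0.89 ± 0.21). Against KO 6 months the 1 higher was Atp8b1 (0.51 ± 0.11). Among the 6 lower were Slc51b (-0.71 ± 0.14) and Slc51a (-0.40 ± 0.11), which are not uptake carriers. No Slc or Slco gene of the list passed as higher in either comparison. Slc10a1, the main sodium-dependent bile acid carrier of hepatocytes, had a mean of 11.89 in WT 6 months and 13.23 to 13.30 in the 3 other groups. Of 10 genes of bile acid synthesis and conjugation, 2 were higher and 1 lower against WT 24 months. The last was Baat, which joins bile acids to taurine or glycine (-1.48 ± 0.12), and the former were Cyp7a1, the rate-limiting enzyme (2.47 ± 0.63), and Amacr (0.92 ± 0.16). Against KO 6 months 1 was higher, Amacr (0.56 ± 0.16), and 4 were lower, namely Baat, Cyp8b1, which makes cholic acid (-3.54 ± 0.80), Akr1d1 (-1.45 ± 0.32) and Cyp7b1 (-1.20 ± 0.37).

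Of 12 receptors and factors known to control ABC genes, 3 were higher and 1 lower against WT 24 months, and 4 and 2 against KO 6 months. In the first, Nfe2l2, which encodes NRF2, was higher by 0.92 ± 0.14, Ahr, the dioxin receptor, by 1.70 ± 0.24 and Keap1, the partner that retains NRF2, by 0.43 ± 0.13, while Nr1h4, the bile acid receptor FXR, was lower (-1.07 ± 0.15). Of 6 enzymes of detoxification, glutathione synthesis and conjugation, 3 were higher and none lower in both comparisons. These were the glutathione transferases Gstm3 (2.30 ± 0.17 against WT 24 months) and Gstm1 (0.75 ± 0.12) and the quinone reductase Nqo1 (2.42 ± 0.37), which makes no conjugate itself. No gene of these lists passed in KO 24 months tumor against WT 24 months or against KO 6 months.

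Of the 17 lipid exporters, 2 were higher and 1 lower in WT 6 months against WT 24 months, and again 2 and 1 against KO 6 months. Of all genes, 7.07% were higher and 6.22% lower in the first comparison, and 8.04% and 9.00% in the second. The median differences of the 17 were -0.15 and -0.22. The canalicular and sterol exporters on which bile and HDL depend were not among those that passed. Abcb4, which carries phosphatidylcholine into bile, lay between 11.47 and 11.97 in all 12 arrays. Abca1, which loads cholesterol onto apolipoprotein A-I, lay between 11.50 and 11.94. Abcg5 and Abcg8, which together form the sterol exporter, differed by -0.64 ± 0.27 and -0.46 ± 0.26 in WT 6 months against KO 6 months, short of the threshold, and both were lowest in WT 6 months replicate 1 (9.88 and 9.40) and high in replicate 3 (10.93 and 10.81), where Abcg8 was the highest of all 12 arrays. Without that array both passed as lower in this comparison.

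The lipid members that passed were Abca5, Abca7, Abca8a, Abca8b and Abca2, the last only with the other groups averaged (-0.33 ± 0.11; limma, adjusted p = 0.0495). The call of Abca2 passed in 4 of the 12 fits that left out an array and in 3 of 7 other settings. Abca5, which is linked to cholesterol handling in lysosomes, was 8.93, 9.22 and 8.86 in WT 6 months, 7.97, 7.94 and 8.09 in KO 6 months, 7.60, 8.54 and 7.69 in WT 24 months and 7.98, 7.97 and 8.15 in KO 24 months tumor. Abca8b was 9.65, 8.92 and 8.95 in WT 6 months, 8.01, 8.05 and 8.39 in KO 6 months, 8.04, 7.85 and 8.15 in WT 24 months and 8.02, 7.51 and 7.78 in KO 24 months tumor. For both genes the WT 6 months arrays did not overlap with any other. Abca5 was higher by 1.06 ± 0.21 against WT 24 months and 1.00 ± 0.21 against KO 6 months, and Abca8b by 1.16 ± 0.20 and 1.02 ± 0.20 (limma, adjusted p between 0.003 and 0.0071 for the 4).

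Abca8a, the close relative of Abca8b, took the opposite direction. Its values were 10.41, 10.30 and 9.81 in WT 6 months, 11.10, 11.56 and 11.58 in KO 6 months, 11.16, 11.12 and 11.17 in KO 24 months tumor and 11.09, 9.52 and 10.47 in WT 24 months. It differed by -1.24 ± 0.32 against KO 6 months (limma, adjusted p = 0.020), a call lost without KO 6 months replicates 2 or 3 or WT 6 months replicate 3. WT 24 months spread over more than a unit, and there the difference was -0.19 ± 0.32. On mouse chromosome 11 the genes Abca8b, Abca8a, Abca9, Abca6 and Abca5 follow each other with no other coding gene between them in the RefSeq annotation. Within this row of 5, both outer genes were higher in WT 6 months, the second was lower against KO 6 months, and Abca9 and Abca6 passed in neither comparison.

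Abca7, a phospholipid exporter also active in phagocytes, was 6.30, 6.18 and 6.49 in WT 6 months, 6.69, 6.77 and 6.59 in KO 6 months, 7.08, 7.25 and 7.01 in WT 24 months and 6.72, 6.64 and 6.96 in KO 24 months tumor. WT 6 months was lowest and WT 24 months highest, with no overlap between these and the remaining arrays. The difference against WT 24 months was -0.79 ± 0.12 (limma, adjusted p = 0.0013) and that against KO 6 months -0.36 ± 0.12 (adjusted p = 0.063). The remaining lipid members did not pass. Abca3, the surfactant lipid transporter, was 10.31, 10.66 and 10.51 in WT 6 months, 11.21, 11.25 and 10.91 in KO 6 months, 11.45, 10.08 and 10.47 in WT 24 months and 9.57, 9.73 and 10.73 in KO 24 months tumor, and the latter lay below KO 6 months without overlap (-1.12 ± 0.34; limma, adjusted p = 0.63). Abca4, Abca12, Abca13 and Abcg4 had low means over the 12 arrays, between 3.52 and 6.23, and differed by -0.03 to -0.15 against WT 24 months. Abcg1, Abca6 and Abca9 are described with the arrays that stood apart.

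Of 8 further genes that supply or accept sterols, Stard4, a cholesterol carrier of the cytosol, was higher in both comparisons (1.14 ± 0.17 against WT 24 months) and in the first Lcat, which esterifies cholesterol in HDL, was lower (-0.50 ± 0.12).

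**Figure D2:**
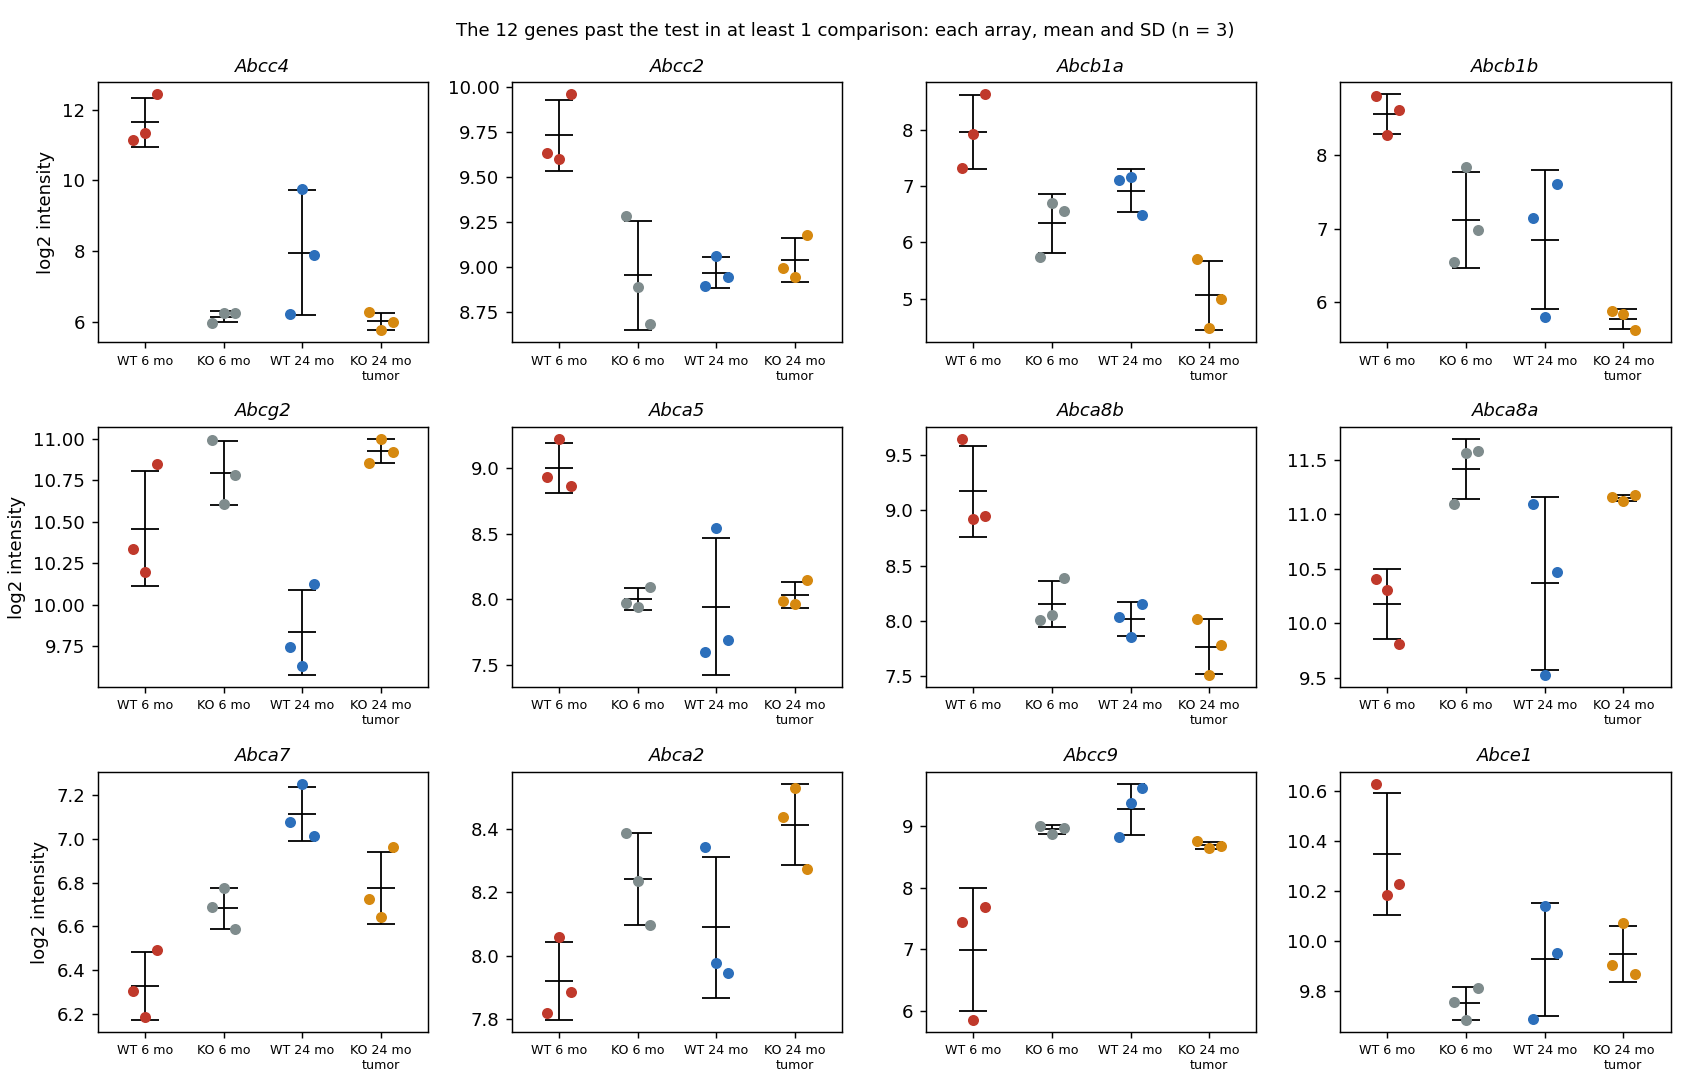
Log2 intensity of the 12 genes that passed in at least 1 comparison, with one point per array, the group mean and the SD (n = 3); each panel has its own scale. Abcc4, Abcc2, Abcb1a, Abcb1b, Abca5, Abca8b and Abce1 are highest in the 3 WT 6 months arrays, and Abca7 and Abcc9 lowest.

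Among the 6 drug exporters, the 2 P-glycoprotein genes were higher in the WT 6 months arrays. Both encode the broad-range efflux pump of the canalicular membrane, for which humans have a single gene. Abcb1a was 7.32, 7.93 and 8.63 in WT 6 months, 5.75, 6.71 and 6.56 in KO 6 months, 7.12, 7.16 and 6.48 in WT 24 months and 5.71, 4.48 and 4.99 in KO 24 months tumor. Abcb1b was 8.80, 8.27 and 8.61 in WT 6 months, 6.55, 7.84 and 6.98 in KO 6 months, 7.15, 5.80 and 7.61 in WT 24 months and 5.88, 5.83 and 5.62 in KO 24 months tumor. The WT 6 months arrays were above all 9 others for both genes, and KO 24 months tumor had the lowest group mean.

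Abcb1a was higher by 1.62 ± 0.39 against KO 6 months (limma, adjusted p = 0.014; lost without KO 6 months replicate 1) and by 1.04 ± 0.39 against WT 24 months, which did not pass (adjusted p = 0.11). Abcb1b was higher by 1.71 ± 0.41 against WT 24 months (adjusted p = 0.018; lost without WT 6 months replicate 1). Its difference of 1.44 ± 0.41 against KO 6 months (adjusted p = 0.034) passed in only 5 of the 12 fits that left out an array. In KO 24 months tumor against WT 24 months, Abcb1a differed by -1.86 ± 0.39, just short of the threshold (adjusted p = 0.062). A second probe set of Abcb1a gave 1.79 ± 0.34 against KO 6 months, whereas a second, dim probe set of Abcb1b gave -0.08 ± 0.09. Abcb4, the phospholipid carrier described above, follows them on chromosome 5 with 1 other coding gene in the row, and differed by -0.12 ± 0.14 and -0.03 ± 0.14 in these 2 comparisons.

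Abcg2, which exports drugs, urate and porphyrins, was the only member that passed between KO 24 months tumor and WT 24 months. It was 10.86, 11.0 and 10.92 in KO 24 months tumor, 9.75, 9.63 and 10.12 in WT 24 months, 10.99, 10.60 and 10.78 in KO 6 months and 10.33, 10.20 and 10.85 in WT 6 months. All 3 WT 24 months arrays were below all 9 others. The difference was 1.09 ± 0.18 between KO 24 months tumor and WT 24 months, a fold of 2.13 (limma, adjusted p = 0.032), and 0.63 ± 0.18 between WT 6 months and WT 24 months (adjusted p = 0.041). The first call was lost without KO 6 months replicate 3, any of the KO 24 months tumor arrays or WT 24 months replicate 2, while its size stayed between 0.99 and 1.24. The second was lost in 8 of the 12 fits that left out an array.

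Abcc5, an exporter of cyclic nucleotides, gave a different answer by probe set. The brightest, used here, lay between 7.55 and 7.89 in all arrays and differed by -0.11 ± 0.11 and -0.12 ± 0.11 in WT 6 months against WT 24 months and KO 6 months. Of the other 9 probe sets, tested over all probe sets of the array, 1 was higher in the first comparison (0.86 ± 0.22; limma, adjusted p = 0.034) and the same 1 (1.30 ± 0.22; adjusted p = 0.003) and another (1.05 ± 0.26; adjusted p = 0.021) in the second. These were examined after their values had been seen. Abcc10 passed in no comparison.

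**Figure D3:**
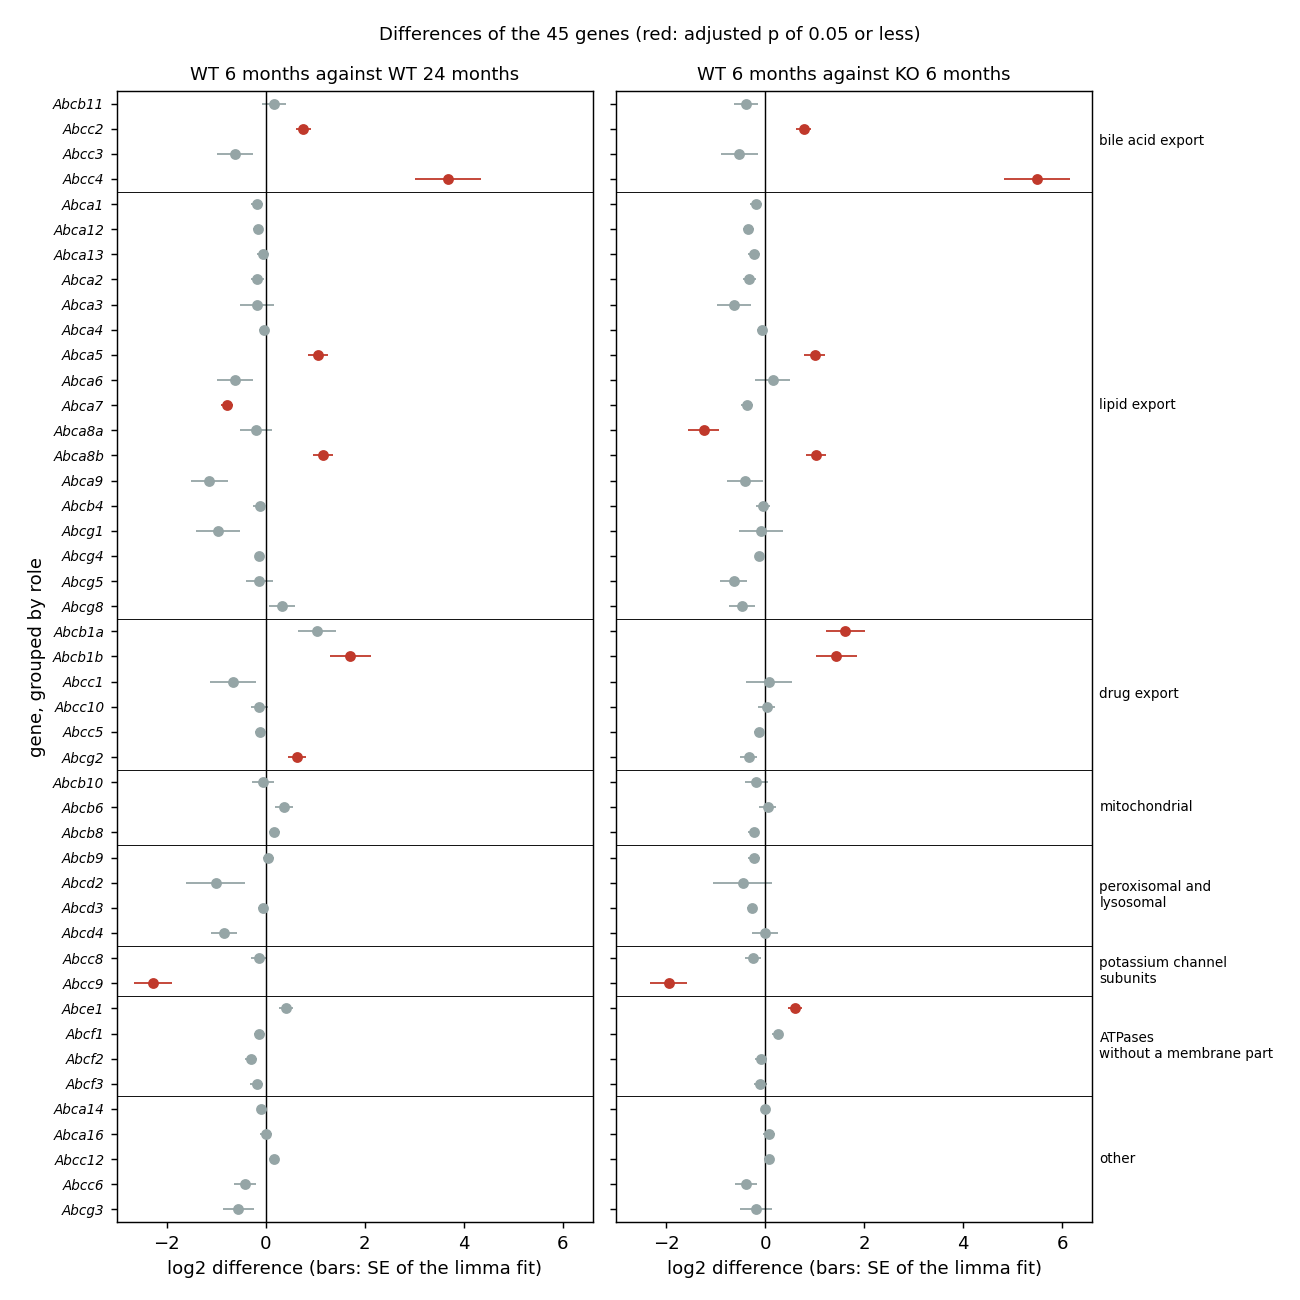
Log2 difference of each of the 45 genes in WT 6 months against WT 24 months (left) and WT 6 months against KO 6 months (right), grouped by role; bars are the SE of the limma fit and red marks an adjusted p of 0.05 or less. Abcc4 lies far to the right (3.69 and 5.49) and Abcc9 farthest to the left (-2.27 and -1.95), while most members lie near 0.

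With a fold of 3 required as well, 3 members were called in each of these comparisons, where 2.42% and 2.62% of all genes were called. Abcc4 and Abcc9 were called in both, Abcb1b against WT 24 months and Abcb1a against KO 6 months. Abcc9, the regulatory subunit SUR2 of ATP-sensitive potassium channels in muscle and pericytes, is not an exporter, and it was the member with the largest decrease. Its log2 intensity was 7.45, 5.86 and 7.69 in WT 6 months, 9.00, 8.87 and 8.96 in KO 6 months, 8.82, 9.37 and 9.62 in WT 24 months and 8.75, 8.64 and 8.67 in KO 24 months tumor. The WT 6 months arrays lay below all others by about a unit or more. The difference was -2.27 ± 0.38 against WT 24 months, a fold of 4.82 (limma, adjusted p = 0.0023), and -1.95 ± 0.38 against KO 6 months, a fold of 3.86 (adjusted p = 0.0048). The 2 other probe sets of Abcc9 gave -1.32 ± 0.17 and -2.07 ± 0.37 against WT 24 months. The differences of Abcc9 in both comparisons passed in each fit that left out an array. That against WT 24 months did not pass by SAM or with only the arrays of its own groups fitted.

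Markers of stellate cells and pericytes, the contractile cells around the sinusoids, were lower in the same arrays. Of 8 markers, 6 were lower and none higher in both comparisons, among them Dcn (-3.04 ± 0.30 against WT 24 months), Rgs5 (-2.55 ± 0.29), Colec11 (-2.46 ± 0.28) and Reln (-1.84 ± 0.28). The log2 of their summed intensities was 9.98 to 11.15 in WT 6 months and 12.44 to 13.23 in the 9 other arrays, and it was lowest in WT 6 months replicate 2, as was Abcc9. Of 8 markers of sinusoidal endothelium, 7 were lower against WT 24 months and 6 against KO 6 months, with sums of 9.86 to 10.46 in WT 6 months and 11.18 to 12.11 elsewhere. Their part in the difference of Abcc9 was not tested. In RNA of whole tissue, fewer cells of a type and less RNA per cell cannot be told apart. Kcnj8, the channel pore that pairs with Abcc9, differed by -0.64 ± 0.26 and -0.78 ± 0.26 and passed in neither comparison, and Abcc8, the subunit of pancreatic channels, by -0.13 ± 0.16 and -0.25 ± 0.16.

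**Figure D4:**
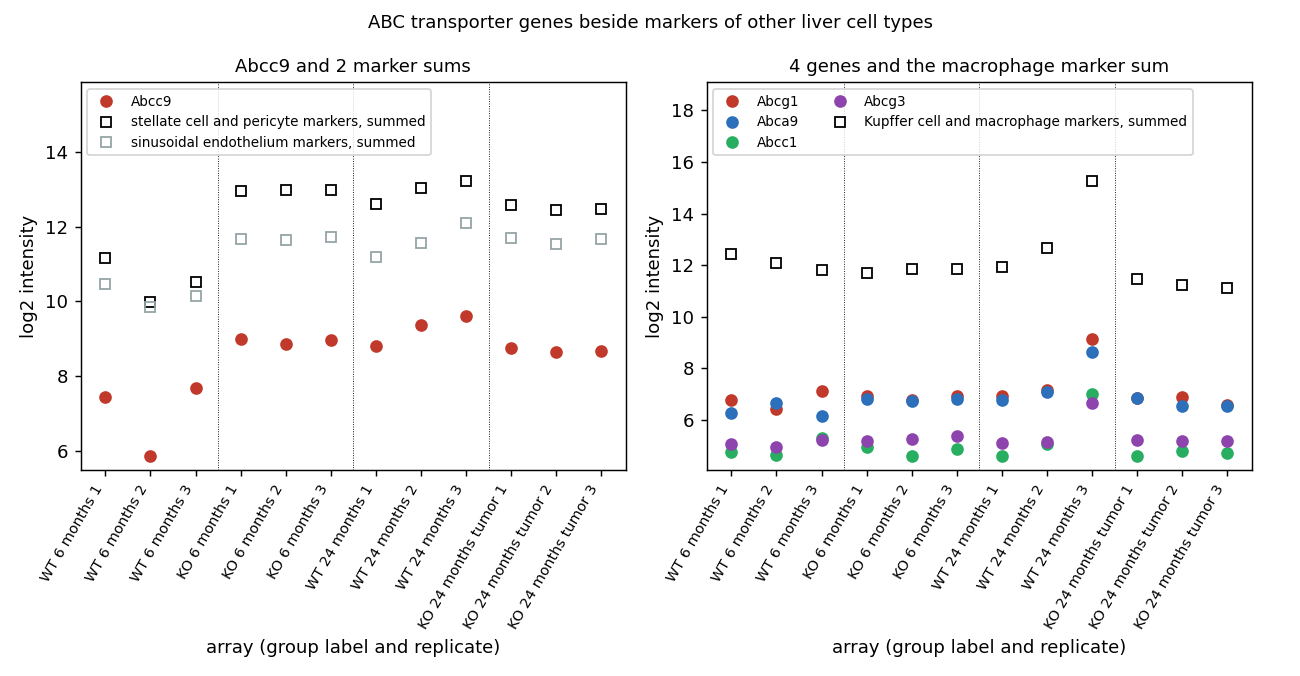
Left, log2 intensity of Abcc9 (filled) beside the summed log2 level of 8 stellate cell and pericyte markers and 8 sinusoidal endothelium markers (open squares) in each array. Right, Abcg1, Abca9, Abcc1 and Abcg3 beside the summed level of 8 macrophage markers. The WT 6 months arrays are low in Abcc9 and both sums, and WT 24 months replicate 3 is high in the 4 genes and in the macrophage sum (15.27).

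A single array stood far above the others in several members that did not pass. WT 24 months replicate 3 held the highest value of Abcg1, the macrophage cholesterol exporter (9.15, against 7.14 in the next array), of Abcc1, an exporter of glutathione conjugates and leukotriene C4 (7.0 against 5.30), of Abca9 (8.62 against 7.09) and of Abcg3 (6.66 against 5.36). It held the highest value in 9 of the 45 members, or 20%, and in 10.8% of all genes. All 8 markers of Kupffer cells and macrophages were also highest in it, with a summed log2 level of 15.27 against 11.10 to 12.66 in the other 11 arrays. Their part in these values was not tested. Without it, Abca9 and Abcd4 were lower in WT 6 months than in WT 24 months, which raised the members lower there from 2 to 4, whereas the calls of Abcc4, Abcc2 and Abcc9 were kept.

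WT 24 months replicate 2 was highest in 7 members (15.6%) and lowest in 7, where it was highest in 9.1% of all genes and lowest in 10.7%. KO 24 months tumor replicate 2 was highest in 8 members (17.8%) and in 11.4% of all genes. In these 8 it exceeded the next array by only 0.006 (Abcg2) to 0.29 (Abca16), so it did not stand apart. WT 24 months replicate 2 held the highest Abca6 (9.29, against 8.04 in the next array), Abcd2, a carrier of very long-chain fatty acids into peroxisomes (8.04 against 7.26), Abcd4, needed for the exit of cobalamin from lysosomes (9.26 against 8.45), and Abcc3, and the lowest Abcb11 and Abca8a. It also held the highest Abcc4 outside the WT 6 months arrays. Without WT 24 months replicate 1, 4 members passed in KO 24 months tumor against WT 24 months in place of 1, namely Abca8a, Abcb11, Abcc4 and Abcg2.

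None of the 3 mitochondrial genes (Abcb6, Abcb8, Abcb10) and none of the 4 peroxisomal and lysosomal genes passed in any comparison. Their differences were not all small, since Abcd4 differed by -0.84 ± 0.26 against WT 24 months and Abcd2 by -1.88 ± 0.60 between KO 24 months tumor and WT 24 months (limma, adjusted p = 0.060 and 0.16). Abcd3, the abundant peroxisomal fatty acid carrier, lay between 12.39 and 12.85 in all arrays, and Abcd2 spread from 4.46 to 8.04 with no overlap between WT 24 months, all above 6, and KO 24 months tumor, all at or below 5.55. Of 4 further peroxisomal genes, none passed against WT 24 months and 3 were lower against KO 6 months, Hsd17b4 of fatty acid oxidation (-0.59 ± 0.13) and the import and assembly genes Pex5 (-0.44 ± 0.13) and Pex3 (-0.52 ± 0.14). Among the 4 ATPases without a membrane part, Abce1, which splits ribosomes for reuse, was 10.63, 10.18 and 10.23 in WT 6 months, 9.76, 9.69 and 9.81 in KO 6 months, 9.69, 10.14 and 9.95 in WT 24 months and 9.90, 10.07 and 9.87 in KO 24 months tumor. Its WT 6 months arrays lay just above all others, and it was higher against KO 6 months (0.60 ± 0.14; limma, adjusted p = 0.015; lost without KO 6 months replicate 2) but not against WT 24 months (0.42 ± 0.14; adjusted p = 0.079). Abcf1, Abcf2 and Abcf3, and the remaining 5 members (Abca14, Abca16, Abcc6, Abcc12 and Abcg3), passed in no comparison.

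Whether the change with age differed between the genotype labels was asked with the interaction term. This is the change from KO 6 months to KO 24 months tumor minus that from WT 6 months to WT 24 months. By the labels only KO 24 months tumor was tumor tissue, so age and tumor cannot be told apart in this term. The interaction passed for 3 members, Abcc9, Abca7 and Abcc2, where 4.83% of all genes passed. The mean of Abcc9 went from 7.0 in WT 6 months to 9.27 in WT 24 months, and from 8.95 in KO 6 months to 8.69 in KO 24 months tumor, an interaction of -2.53 ± 0.53 (limma, adjusted p = 0.020). That of Abcc2 was 0.85 ± 0.22 (adjusted p = 0.049) and that of Abca7 -0.69 ± 0.17 (adjusted p = 0.039). Leaving out 1 array ended the call of Abcc2 in 11 of 12 fits, of Abca7 in 9 and of Abcc9 in 3. The interaction of Abcc4 was 3.55 ± 0.94 and fell just short (adjusted p = 0.056).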

How the data were processed

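RNA of 12 livers was measured on 12 Affymetrix whole-genome mouse arrays. The deposited values are log2 intensities that the authors made by RMA (background correction, quantile normalization and summary per probe set) with the simpleaffy package in R, its version not given in the sources used here. All 45101 probe sets were listed for every array, with array medians between 5.41 and 5.45. Groups were taken from the labels. The platform annotation gave the gene of each probe set: 34958 named 1 gene, 932 several and 9211 none, and only the first were used.

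Differences were fitted with limma 3.58.1 in R 4.3.3, as 4 group means over all 12 arrays, with Benjamini-Hochberg adjustment over 18194 genes; 3 arrays against 3 allow no exact permutation p below 0.1. SE are from limma and SD over the arrays of a group. The scripts were tested on simulated data. Named were all bile acid, lipid and drug exporters, all other members that passed, and from further lists up to 4 genes with the smallest adjusted p in WT 6 months against WT 24 months and all passing genes where 5 or fewer passed. Apob, Ephx1, Slc51a and Slc51b were named after their values were seen. Iqgap2 and Afp were named for the labels, and Afp was not among the genes chosen beforehand. Members, roles, lists and the comparison of WT 6 months with the other groups averaged were chosen with earlier results of these data known. Alternatives were the mean of all probe sets of a gene, leaving out genes below log2 6 in all groups, a trended and robust variance prior, the replicate number as a block, other scalings, fits of only the 2 groups compared, SAM, the method of the authors, leaving out each array and, added after seeing the data, testing every probe set. Figures were drawn with matplotlib 3.10.9. The number of arrays limits the precision.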

Additional observations from a re-analysis of the deposited data

Results flagged for a closer look

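For 3 members the change with age differed between the genotype labels by the interaction term (limma, adjusted over 18194 genes; 3 arrays per group), where 4.83% of all genes passed. The interaction was -2.53 ± 0.53 on the log2 scale for Abcc9 (adjusted p = 0.020), -0.69 ± 0.17 for Abca7 (adjusted p = 0.039) and 0.85 ± 0.22 for Abcc2 (adjusted p = 0.049). Leaving out 1 array ended the call of Abcc2 in 11 of 12 fits, of Abca7 in 9 and of Abcc9 in 3. The level of Iqgap2 goes against 2 of the 4 labels. Those 2 groups enter the term with the same sign, so an exchange of their labels would leave these values unchanged. Other errors of labelling were not tested.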

How the results depend on the processing

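Of the 32 differences of single members that passed, none changed direction under any of 644 repeats with another setting. Of the repeats 547 still passed and 97 did not. Most repeats left out 1 array and shared all others, so a change of direction could hardly arise. Where every probe set was tested, the one with the smallest p stood for its gene. Probe sets of the opposite direction, such as the dim one of Abcb1b (-0.08 ± 0.09 against KO 6 months), were thus not counted. With only the 2 groups fitted, 2 members were higher and 1 lower in WT 6 months against WT 24 months, 0 at a fold of 3, and 0 passed in KO 24 months tumor against WT 24 months. By SAM these were 1, 1, 0 and 3, and 11 members were lower in WT 6 months against KO 6 months. Without dim genes, 4 members were lower in WT 6 months against WT 24 months and 5 passed the interaction. Centring on 4 housekeeping genes moved the median of all genes by 0.15 and 0.10 in the 2 main comparisons and turned the members' median in the first from -0.12 to 0.02; 2 members then passed in KO 24 months tumor against WT 24 months, and 1 was lower in WT 6 months with the 3 remaining groups averaged. With the replicate block, 1 member passed the interaction. The numbers paired no arrays: the 18 correlations of same-numbered arrays ran from -0.16 to 0.19, and 5 of 12 arrays were closest to one of their own number. Leaving out 1 array gave 2 to 4 members lower in WT 6 months against WT 24 months, 1 to 5 against KO 6 months, 2 to 7 against the average of the others, 0 to 4 passing in KO 24 months tumor against WT 24 months and 0 to 3 in the interaction. The cause was not tested.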
